A study of Mus musculus with 7 samples.

Results

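Peptidylarginine deiminases are the enzymes that convert arginine residues within proteins to citrulline, a reaction that removes the residue's positive charge and needs calcium. The 5 mouse genes Padi1, Padi2, Padi3, Padi4 and Padi6 were followed here in whole mouse uteri, and all 5 were found by symbol among the 31274 rows of the deposited table. The members were chosen by their FPKM at estrus and at diestrus in these same libraries, so their levels and fold changes are given as a description, with no test. The 2 groups were uteri at estrus (3 libraries) and uteri at diestrus (4 libraries), all from intact, untreated CD-1 mice, an outbred stock, aged 2 months. Estradiol is highest shortly before estrus, while progesterone is the main ovarian steroid of diestrus. Nothing in the labels ties a library to its own mouse, so every p-value below measures the spread between these libraries, which may be technical. Whole uterus holds epithelium, stroma, muscle, vessels and immune cells, so fewer cells of a type and less RNA per cell cannot be told apart.

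The family is known for distinct tissues. Padi1 acts in epidermis and uterus, Padi2 is the most widely expressed member and acts in brain, muscle and myeloid cells, and Padi3 acts in hair follicles. Padi4 acts in the nucleus of granulocytes, where histone citrullination goes with the release of extracellular traps, and Padi6 is an oocyte protein needed for the oocyte's cytoplasmic lattices. In rodent uterus, deiminase activity has long been known to vary with the estrous cycle and with estrogen.

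The genes lie side by side on chromosome 4 (GRCm38, the assembly called mm10), within 225232 bases, in the order Padi6, Padi4, Padi3, Padi1 and Padi2. Padi6 (140727355 to 140742643), Padi4 (140745865 to 140774236), Padi3 (140785365 to 140810648) and Padi1 (140812983 to 140845778) are on the minus strand. Padi2 (140906344 to 140952586) is on the plus strand, so the starts of Padi1 and Padi2 face each other across the widest gap of the cluster, 60565 bases. No other protein-coding gene lies between them. The promoter windows of the 3 members with the highest levels, and of Padi3, which lies between Padi4 and Padi1 but was near 0, are printed as the stretch of the locus next to each start. They run 5′ to 3′ on the strand of the gene, from 250 bases before to 50 bases after the RefSeq start (build GRCm38.p6). Capitals mark matches to the motifs given after the sequences.
Padi1: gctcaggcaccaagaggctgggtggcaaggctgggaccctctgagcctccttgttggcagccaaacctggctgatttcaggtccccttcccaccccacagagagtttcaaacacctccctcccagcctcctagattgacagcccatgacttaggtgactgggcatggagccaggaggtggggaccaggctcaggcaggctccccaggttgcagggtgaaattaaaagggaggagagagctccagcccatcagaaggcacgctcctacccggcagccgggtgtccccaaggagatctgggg
Padi2: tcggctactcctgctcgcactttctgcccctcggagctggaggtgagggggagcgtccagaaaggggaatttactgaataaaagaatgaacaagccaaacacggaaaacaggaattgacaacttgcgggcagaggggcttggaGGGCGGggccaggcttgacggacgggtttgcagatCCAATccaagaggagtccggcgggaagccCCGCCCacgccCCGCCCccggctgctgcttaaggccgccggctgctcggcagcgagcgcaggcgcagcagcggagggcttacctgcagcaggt
Padi4: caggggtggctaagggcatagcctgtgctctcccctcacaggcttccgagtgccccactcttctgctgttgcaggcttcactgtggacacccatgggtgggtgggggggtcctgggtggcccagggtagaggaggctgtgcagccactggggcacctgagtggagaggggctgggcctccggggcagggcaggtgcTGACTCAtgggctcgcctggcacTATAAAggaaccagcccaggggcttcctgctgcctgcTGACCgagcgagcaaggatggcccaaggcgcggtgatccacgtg
Padi3: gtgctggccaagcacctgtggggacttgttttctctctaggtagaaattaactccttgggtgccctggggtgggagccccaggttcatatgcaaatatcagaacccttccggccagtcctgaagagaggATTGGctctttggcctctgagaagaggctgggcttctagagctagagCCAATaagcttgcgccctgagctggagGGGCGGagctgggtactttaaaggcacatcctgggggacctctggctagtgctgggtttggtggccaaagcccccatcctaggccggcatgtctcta
These windows are chr4:140845729-140846028 (minus strand) for Padi1, chr4:140906110-140906409 (plus strand) for Padi2, chr4:140774154-140774453 (minus strand) for Padi4 and chr4:140810599-140810898 (minus strand) for Padi3.

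The windows were searched on both strands for 7 motifs. These were the estrogen response element, made of 2 half-sites facing each other with 3 free bases between them, its half-site GGTCA, the progesterone response element half-site TGTTCT, the GC box GGGCGG, the CCAAT box CCAAT, the TATA box TATAAA and the AP-1 site TGANTCA. Any full estrogen response element is therefore also counted among the half-sites. None of the 5 Padi windows held the full element, which was present in 23 of 32851 promoter windows of the same length. The Padi1 window held no match to any of the 7. The Padi2 window held 3 GC boxes, starting at -107, -43 and -32 from the start site, and a CCAAT box at -72. GC boxes were present in 35.7% and CCAAT boxes in 37.4% of all windows. The Padi4 window held a TATA box at -31, an AP-1 site at -54 and an estrogen response half-site starting 7 bases from the start site on the transcribed side. The shares of all windows with these motifs were 13.6%, 7.81% and 40.5%. The Padi3 window held a GC box at -47 and CCAAT boxes at -121 and -74. The Padi6 window, not printed, held a GC box at -56 and a CCAAT box at -199. The windows also differed in base composition: the ratio of observed to expected CpG was 0.739 for Padi2, against 0.106 for Padi1, 0.248 for Padi4 and 0.168 for Padi3, with a median of 0.384 over all windows. So the members with the highest levels did not share one of these motifs near their starts. A match describes the letters of the window and is not evidence of binding, and a window without a match says nothing of the factor.

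Absolute depth is unknown, since FPKM carry no read count. Relative depth, read from the spacing of the lowest values, was 0.92 to 1.21 times that of estrus replicate 1 in the estrus libraries and 1.06 to 1.36 times in the diestrus libraries. The 10 highest rows held 33.7% to 38.2% of the FPKM sum at estrus and 12.1% to 34.2% at diestrus, the 34.2% being in diestrus replicate 1. Libraries of a group had Spearman correlations of 0.916 to 0.974 across genes, which are not independent replicates, and libraries of different groups 0.820 to 0.919. Esr1 and Pgr, the steroid receptor genes that mark uterine tissue, were detected in every library.

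Levels are FPKM, fragments per kilobase of transcript scaled to the number of mapped fragments, which allow members to be compared with each other. Padi1 stood at 735.9, 1411 and 1186 FPKM in estrus replicates 1 to 3, against 75.4, 26.6, 75.2 and 27.1 FPKM in diestrus replicates 1 to 4. It was the most abundant member in every library. Its means were 1111 ± 344 FPKM at estrus (SD, n = 3) and 51.1 ± 28.0 FPKM at diestrus (SD, n = 4). The lowest estrus library stood 9.76 times above the highest diestrus library. Among all 31274 rows, Padi1 ranked 57, 21 and 39 from the top in the estrus libraries and 873, 3377, 939 and 3425 in the diestrus libraries.

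Padi2 stood at 222.8, 551.0 and 513.0 FPKM in estrus replicates 1 to 3, against 37.8, 15.4, 28.4 and 11.8 FPKM in diestrus replicates 1 to 4. It was second to Padi1 in every library. Its means were 429 ± 180 FPKM at estrus (SD, n = 3) and 23.3 ± 12.0 FPKM at diestrus (SD, n = 4), and its lowest estrus library stood 5.90 times above its highest diestrus library.

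Padi4 stood at 37.8, 62.0 and 51.7 FPKM in estrus replicates 1 to 3, against 4.83, 5.60, 3.76 and 2.02 FPKM in diestrus replicates 1 to 4. It was the third member in every library, with means of 50.5 ± 12.1 FPKM at estrus (SD, n = 3) and 4.05 ± 1.55 FPKM at diestrus (SD, n = 4). The lowest estrus library stood 6.75 times above the highest diestrus library.

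Padi3 stood at 0.612, 1.66 and 1.04 FPKM in estrus replicates 1 to 3, against 0.249, 0.0504, 0.09999 and 0.0672 FPKM in diestrus replicates 1 to 4. It was far below the 3 leading members in both groups, and its lowest estrus library stood 2.46 times above its highest diestrus library. Padi1 stood 850 to 1203 times above Padi3 at estrus and 303 to 752 times above it at diestrus. The annotated transcripts of Padi1 and Padi3 share an exact stretch of 63 bases, the longest between any 2 members (the other pairs shared 15 to 35 bases). Whether reads of Padi1 were counted for Padi3 was not tested.

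Padi6 stood at 0.0102, 0.0167 and 0.0110 FPKM in estrus replicates 1 to 3 and was listed at 0 in all 4 diestrus libraries. FPKM of whole fragments are multiples of the value of 1 fragment, and multiplied by the relative depth of each library the 3 estrus values stood at 1.00, 2.00 and 1.00 times the lowest of them. Values of this kind are as small as 1 or 2 fragments would give, and no fold change is given for Padi6.

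**Figure D1:**
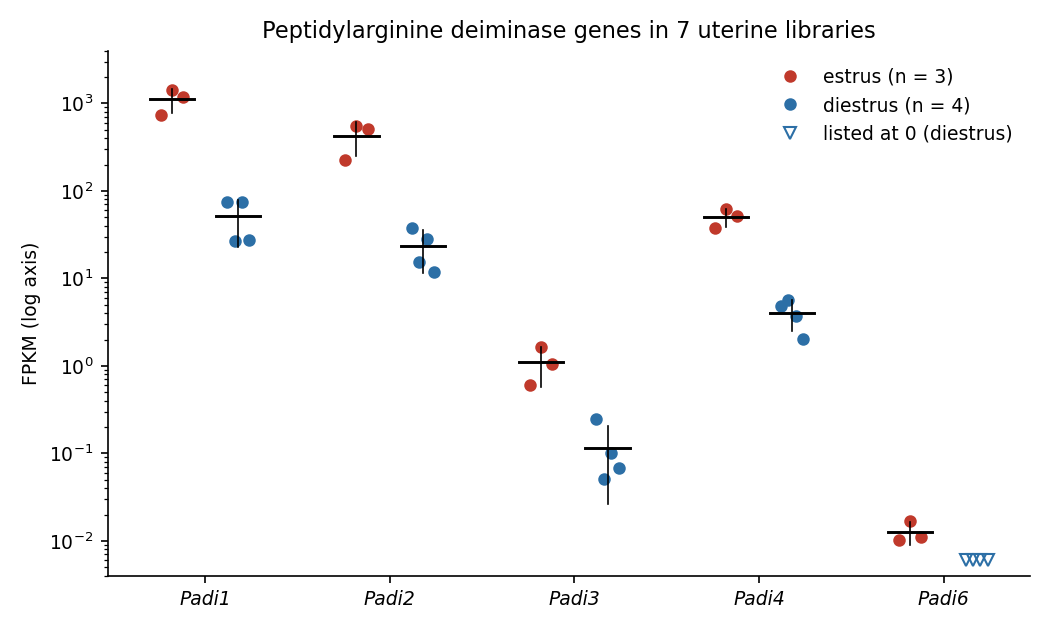
FPKM (log axis) of each Padi gene in each library, with points for libraries, horizontal bars for group means, vertical bars for 1 SD and open triangles for libraries listed at 0. The estrus libraries of Padi1, Padi2, Padi3 and Padi4 lay above all diestrus libraries, and Padi6 was at 0.0167 FPKM or less.

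On the scale of log2(FPKM + 1), the fold changes of estrus over diestrus were 4.54 (SE 0.45) for Padi1, 4.17 (SE 0.46) for Padi2 and 3.38 (SE 0.29) for Padi4. These were the ranks 10, 15 and 43 among 13920 tested genes, of which 68, or 0.489%, had a log2 fold change of at least 3. As ratios of mean FPKM they were 21.8, 18.4 and 12.5. Padi3 did not pass the filter of at least 1 FPKM in at least 3 libraries, since only 2 libraries reached 1 FPKM. Its log2 fold change was 0.89 (SE 0.16), which the added 1 FPKM holds down, and its ratio of mean FPKM was 9.48. With 0.1 FPKM added in place of 1, the log2 fold change of Padi3 was 2.46, and with 5 FPKM added it was 0.25. All 5 genes had every estrus library above every diestrus library, as did 21.9% of the tested genes, of which 31.1% were called in either direction at an adjusted p under 0.05 (limma, Benjamini-Hochberg), and nothing is read from that count because these values were known when the genes were chosen. Without single libraries the log2 fold change ran from 4.29 to 4.81 for Padi1, from 3.91 to 4.59 for Padi2 and from 3.15 to 3.57 for Padi4.

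The 5 genes together summed to 997, 2026 and 1752 FPKM in estrus replicates 1 to 3, against 118, 47.7, 107 and 41.0 FPKM in diestrus replicates 1 to 4. Padi1 made up 70.4 ± 3.1% of that sum at estrus (SD, n = 3) and 63.9 ± 6.0% at diestrus (SD, n = 4). Padi2 made up 26.3 ± 3.6% at estrus and 29.9 ± 2.8% at diestrus. The ranges of both shares overlapped between the groups. Padi1 ran from 67.7% to 73.8% at estrus and from 55.8% to 70.0% at diestrus, and Padi2 from 22.3% to 29.3% at estrus and from 26.4% to 32.4% at diestrus. Padi4 made up 2.95% to 3.79% at estrus and 3.50% to 11.7% at diestrus, with the highest share in diestrus replicate 2, where Padi1 was lowest and Padi4 highest of the diestrus libraries. The ratio of Padi1 to Padi2 was 2.73 ± 0.52 at estrus (SD, n = 3) and 2.17 ± 0.40 at diestrus (SD, n = 4), with overlapping ranges of 2.31 to 3.30 at estrus and 1.72 to 2.65 at diestrus.

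**Figure D2:**
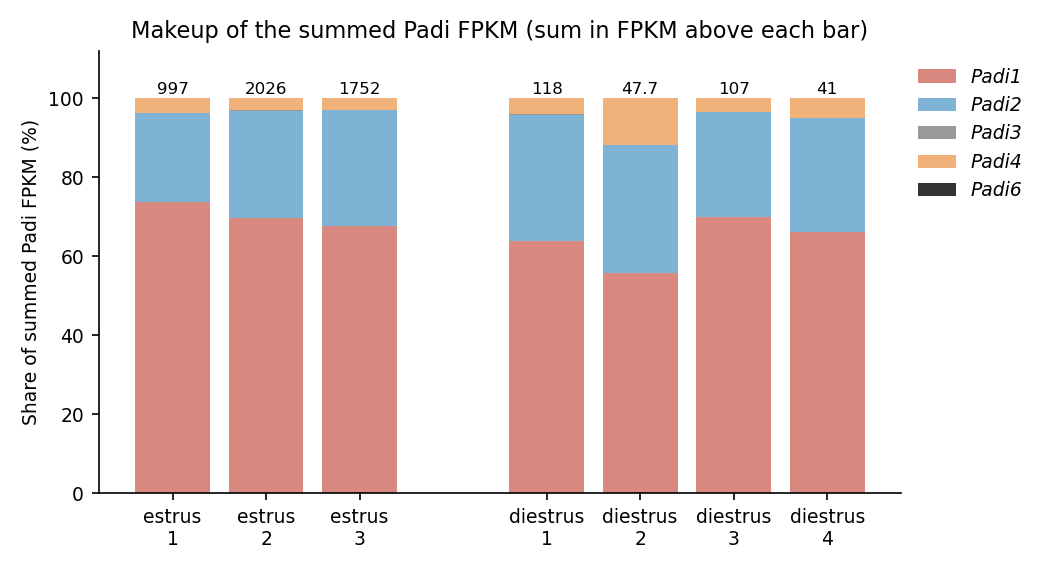
Share of each member in the summed Padi FPKM (percent, stacked bars from 0) for each library, with the sum in FPKM above each bar. Padi1 and Padi2 made up most of the sum in every library, while the sums were 997 to 2026 FPKM at estrus and 41.0 to 118 FPKM at diestrus.

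Within estrus, replicate 2 was the highest, replicate 3 the next and replicate 1 the lowest library for Padi1, Padi2, Padi3 and Padi4. The highest estrus library stood 1.92 times above the lowest for Padi1, 2.47 times for Padi2, 2.72 times for Padi3 and 1.64 times for Padi4. Within diestrus, replicates 1 and 3 were higher than replicates 2 and 4 for Padi1, Padi2 and Padi3. Padi4 did not follow that order, with replicate 2 the highest and replicate 4 the lowest. The highest diestrus library stood 2.83 times above the lowest for Padi1, 3.20 times for Padi2, 4.93 times for Padi3 and 2.77 times for Padi4.

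RNA annotated across the members on the opposite strand also has rows in the table. Gm13032, a noncoding transcript with 1200 of its 2001 exonic bases within exons of Padi1, stood at 4.16, 6.10 and 6.85 FPKM in estrus replicates 1 to 3, against 0.409, 0.110, 0.813 and 0.249 FPKM in diestrus replicates 1 to 4. Gm13031, antisense to Padi2 with 149 of 924 exonic bases shared, stood at 0.279 to 0.720 FPKM at estrus and 0.0454 to 0.146 FPKM at diestrus. Both were higher in every estrus library than in every diestrus library, as were 21.9% of the tested genes. Gm13031 was under the filter. The sources used here do not say whether counting used strand, and without strand the reads of a gene and of its antisense partner cannot be told apart.

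The other genes of the chromosome segment were given by the 6 nearest protein-coding genes on each side. Of these 12 neighbours, 8 passed the filter, 1 was called higher and none lower at an adjusted p under 0.05 (limma, Benjamini-Hochberg), against 17.2% higher and 14.0% lower among all tested genes. Sdhb, the iron-sulfur subunit of succinate dehydrogenase and the gene next to Padi2, rose to 117.1 ± 5.0 FPKM at estrus (SD, n = 3), against 75.8 ± 18.2 FPKM at diestrus (SD, n = 4). Its log2 fold change was 0.65 with an SE of 0.18, at a limma adjusted p of 0.0337. That call was lost in 8 of 15 alternatives, with an adjusted p of 0.0587 to 0.112 without any single library other than diestrus replicate 1 and 0.168 after quantile normalization. Rcc2, the gene next to Padi6, stood at a log2 fold change of 0.44 (adjusted p = 0.266), and Mfap2, an elastic microfibril protein, at -0.67 (adjusted p = 0.0708, and 0.0359 without diestrus replicate 2). The 8 log2 fold changes ran from -0.67 to 0.65, all below those of Padi1, Padi2, Padi4 and Padi3.

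**Figure D3:**
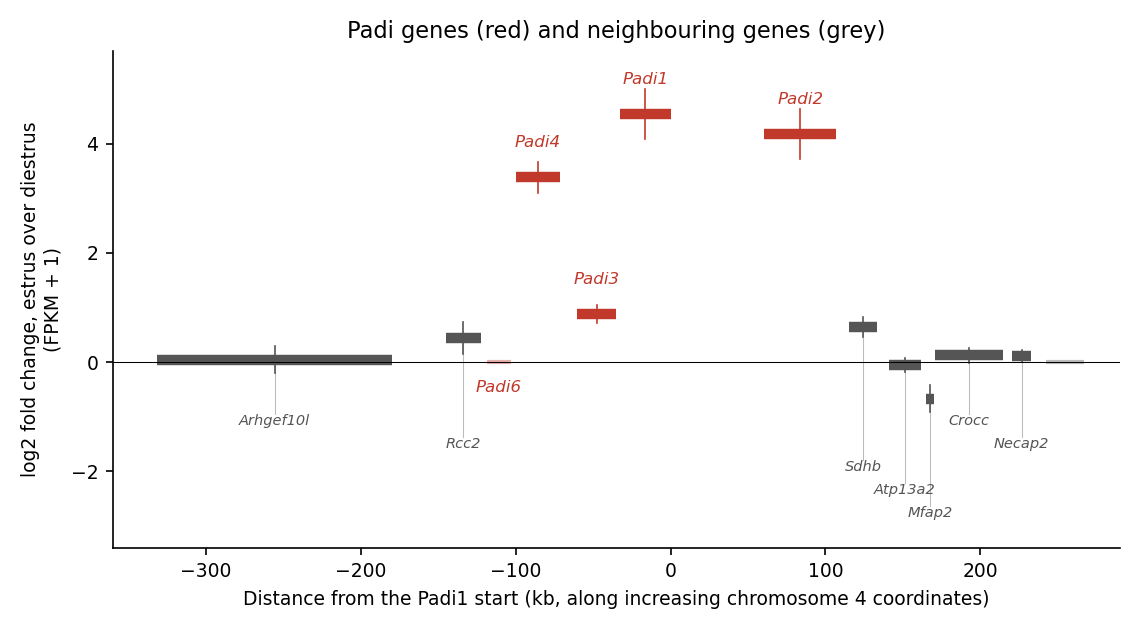
Log2 fold change of estrus over diestrus (FPKM + 1, y axis) against distance from the Padi1 start (kb), with thick bars spanning each gene, thin bars for the SE, Padi genes in red and neighbours in grey. Padi6 and the neighbour with no fold change are drawn faintly at 0, and neighbours farther away, among them the tested gene Klhdc7a, lie outside the plot. Padi1, Padi2 and Padi4 stand at 3.38 to 4.54, and the neighbours at -0.67 to 0.65.

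The genes whose levels over the 7 libraries were most like those of a member were found by the root-mean-square (RMS) difference of log2(FPKM + 1) after centring each gene on its mean. This measure reads the difference between the groups as well as that within them and has no test. The 10090 candidate genes averaged at least 5 FPKM over the 7 libraries. Left out were the Padi genes and rows with predicted-gene, clone or accession names, such as those in Gm and Rik. Padi1 and Padi2 were 0.29 apart, and no candidate was closer to either. The closest candidate for both was Unc5cl, a death domain protein, at 0.35 from Padi1 and 0.32 from Padi2, where the median of all candidates was 2.29 and 2.12. Unc5cl averaged 178 ± 69 FPKM at estrus (SD, n = 3), against 7.21 ± 3.52 FPKM at diestrus (SD, n = 4). For Padi1 the next were Add2, the membrane skeleton protein beta-adducin, at 0.56, and Mfsd4, a protein of the major facilitator transporter family, at 0.58. For Padi2 the next were Sprr2i, a small proline-rich protein, at 0.40, and Add2 at 0.44, but the Sprr2 genes are so alike that the split of their reads is uncertain.

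Padi4 had other nearest genes. Myb, a transcription factor of progenitor cells, was closest at 0.19, then Elf3, an epithelial ETS factor, at 0.26, where the median of candidates was 1.68. Padi2 was at 0.62 from Padi4, with 78 candidates closer, and Padi1 at 0.80, with 159 closer. Myb averaged 54.8 ± 8.4 FPKM at estrus (SD, n = 3), against 5.13 ± 2.60 FPKM at diestrus (SD, n = 4). Elf3 averaged 554.3 ± 30.6 FPKM at estrus (SD, n = 3), against 66.2 ± 23.3 FPKM at diestrus (SD, n = 4). The 6 genes named here as most like a member had log2 fold changes of 3.13 to 4.48. The choice by likeness fixes that they are high, so no test is given for them here.

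Deimination is best known in cornifying epithelium, where filaggrin, trichohyalin and keratins are substrates. Of 30 genes of cornified cells, 10 passed the filter, 3 rose and 1 fell, against 17.2% higher and 14.0% lower over all tested genes. The median log2 fold change was 0.11, against 0.05 over all tested genes. Evpl, the cornified envelope protein envoplakin, rose to 11.2 ± 1.7 FPKM at estrus (SD, n = 3), against 3.77 ± 0.67 FPKM at diestrus (SD, n = 4), with a limma adjusted p of 0.00233. Dsp, desmoplakin, rose by a log2 fold change of 1.60 (adjusted p = 0.0131, and 0.064 without estrus replicate 2), and the transglutaminase Tgm1 by 0.57 (adjusted p = 0.0301, and 0.0611 without diestrus replicate 3). Tgm1 passed the filter only through its estrus libraries, and without any 1 of them it was not tested. Tchh, trichohyalin, fell to 0.667 ± 0.119 FPKM at estrus, against 1.66 ± 0.51 FPKM at diestrus, with an adjusted p of 0.0329 that reached up to 0.0939 when estrus replicate 1, and 4 other libraries in turn, were left out. Tchh was under 1 FPKM in all estrus libraries and passed the filter only through its diestrus libraries. The classic substrate Flg, filaggrin, averaged 0.0508 FPKM at estrus and 0.00462 FPKM at diestrus, and Cnfn and Klk5 were listed at 0 in all libraries. Not every gene under the filter was that low. The keratin Krt14 averaged 3.11 ± 4.09 FPKM at estrus and 0.156 ± 0.071 FPKM at diestrus. Krt5 averaged 1.56 and 0.0913 FPKM, and the transglutaminase Tgm5 1.55 and 0.366 FPKM. Others were lower at estrus, among them S100a3 at 0.107 and 0.166 FPKM. As genes under the filter they have no p-value here. Without estrus replicate 2, Evpl was the 1 cornification gene that rose, where 854 of all 13770 tested genes were higher.

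Of 25 tested genes for proteins reported as citrullinated in any tissue, 3 rose and 2 fell, against 17.2% higher and 14.0% lower over all tested genes, with a median of 0.12. Eno1, the glycolytic enzyme alpha-enolase, rose to 57.6 ± 7.8 FPKM at estrus (SD, n = 3), against 19.7 ± 4.4 FPKM at diestrus (SD, n = 4), with a limma adjusted p of 0.0025, but it has near-identical copies in the genome and its reads may be split. Mbp, myelin basic protein, rose by 0.92 (adjusted p = 0.00953) and the nucleoporin Nup98 by 0.40 (adjusted p = 0.0324). The chemokine Cxcl12 fell by 1.25 (adjusted p = 0.0146, and 0.0551 without estrus replicate 2). Vim, the intermediate filament protein vimentin, fell by 0.90 (adjusted p = 0.0379). The calls of Nup98 and Vim were lost without 4 and 5 of the 7 libraries in turn, with adjusted p-values up to 0.139 and 0.117, both without estrus replicate 2. Without diestrus replicate 1, 5 of the genes rose and 4 fell, where 2866 of all 13789 tested genes were higher and 2445 lower. Without estrus replicate 2, 2 rose and none fell, where 854 of all 13770 tested genes were higher and 579 lower.

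Arginine in proteins can also be methylated, and free arginine and free citrulline have enzymes of their own. Of 19 tested genes of these kinds, 3 rose and 4 fell, with 17.2% higher and 14.0% lower over all tested genes, and the median was 0.04. Ass1, argininosuccinate synthase, which uses up free citrulline, rose to 9.75 ± 1.52 FPKM at estrus (SD, n = 3), against 0.715 ± 0.130 FPKM at diestrus (SD, n = 4). The log2 fold change of Ass1 was 2.64, at a limma adjusted p of 0.000312. Ass1 was under 1 FPKM in all diestrus libraries and so passed the filter only through its estrus libraries. It was not tested without any 1 estrus library, and its adjusted p was at most 0.00213 without a diestrus library. Arg2, a mitochondrial arginase, and Nos3, the endothelial nitric oxide synthase, which forms free citrulline, fell by 1.55 and by 0.93 (adjusted p = 0.00787 and 0.00571). Among the arginine methyltransferases, Prmt7 rose by 0.57 (adjusted p = 0.0308), and 8 others, Prmt1, Prmt2, Prmt3, Carm1, Prmt5, Prmt6, Prmt8 and Prmt10, were not called, Prmt8 being under the filter. Ddah2 and Asl were also lower (adjusted p = 0.0106 and 0.048). Arg1, the liver-type arginase, was called higher (adjusted p = 0.0363) with a log2 fold change of 4.18 and an SE of 1.22. Its levels were 15.0, 255 and 754 FPKM in estrus replicates 1 to 3, against 5.41, 4.88, 21.5 and 3.95 FPKM in diestrus replicates 1 to 4, so the groups overlapped. Prmt7 was not called without 5 of the 7 libraries in turn (up to 0.115), Arg1 without 5 (up to 0.129), Asl without 6 (up to 0.139) and Ddah2 without estrus replicate 2 (0.0585), the highest value in each case being that without estrus replicate 2. Without that library 2 of these genes fell and none was called higher, Ass1 being untested there. Of all 13770 genes tested without it, 854 were higher and 579 lower.

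Among 18 tested genes of estrogen response and of factors reported at human PADI genes, 5 rose and 2 fell, where all tested genes gave 17.2% higher and 14.0% lower, and the median was 0.31. Myb, also the candidate most like Padi4, rose by 3.30, given without a p-value because that likeness fixes that it is high. It is counted among the 5. Greb1, an estrogen receptor cofactor, rose by 1.31 (limma adjusted p = 0.00793). The AP-1 genes Fos, Fosl2 and Junb rose by 1.85, 1.02 and 0.74 (adjusted p = 0.0111, 0.0252 and 0.0201), and without estrus replicate 2 they were at 0.0546, 0.104 and 0.0748. Junb was also above 0.05 without estrus replicate 1 (0.0647) and Fosl2 without estrus replicate 3 (0.068). The gland factor Foxa2 fell by 1.06 (adjusted p = 0.00994), and Tfap2c fell by 0.94 (adjusted p = 0.0287, and 0.0825, 0.0954 and 0.0658 without estrus replicates 1 to 3). Tfap2c was at 0.134 to 0.194 FPKM at estrus and passed the filter only through diestrus replicates 2, 3 and 4, without any 1 of which it was not tested. Esr1, the estrogen receptor alpha gene, stood at 116.7 ± 15.9 FPKM at estrus and 94.3 ± 16.0 FPKM at diestrus (adjusted p = 0.188). Pgr, the progesterone receptor gene, stood at 81.9 ± 15.6 FPKM at estrus and 53.8 ± 37.4 FPKM at diestrus (adjusted p = 0.187, and 0.00606 without diestrus replicate 1).

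**Figure D4:**
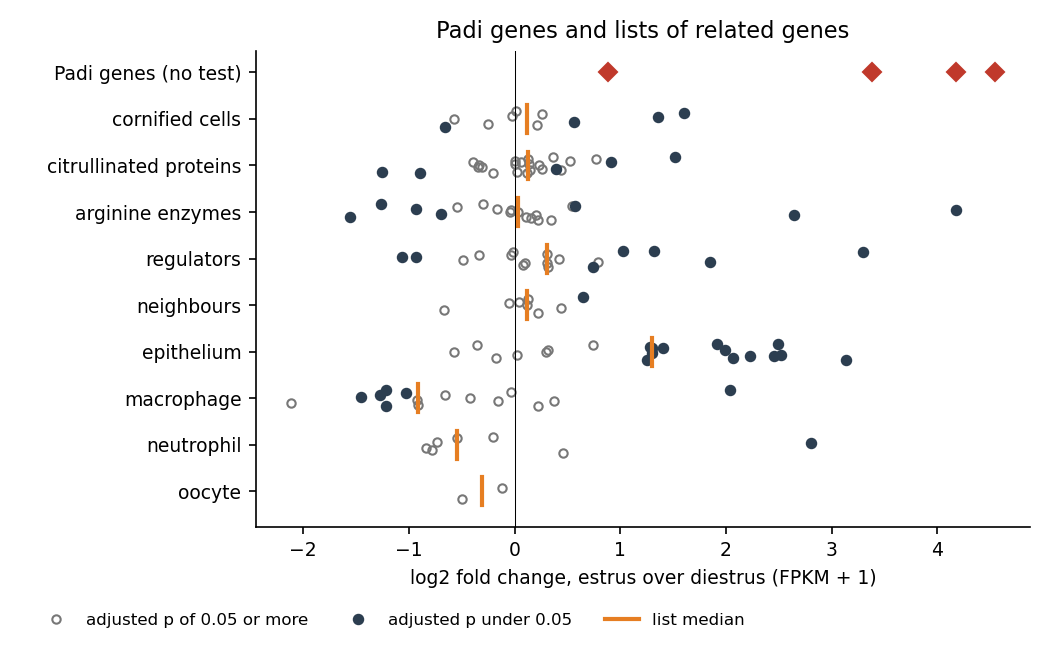
Log2 fold change of estrus over diestrus (FPKM + 1, x axis) for the 4 Padi genes with a fold change (diamonds) and for the tested genes of each list (circles, filled at an adjusted p under 0.05), with orange bars for list medians. Elf3 and Myb, named in the text for their likeness to Padi4, are among the filled circles. Padi1, Padi2 and Padi4 lie at 3.38 to 4.54, and the list medians run from -0.92 for macrophage markers to 1.30 for epithelium markers.

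Cell type markers were followed as whole lists. Of 20 epithelium markers, all tested, 13 rose and none fell, against 17.2% higher and 14.0% lower over all tested genes. Their median log2 fold change was 1.30, and none of them was at 0 in all libraries. Ovol2 and Krt7 had the smallest p-values, with log2 fold changes of 2.49 and 2.52 (limma adjusted p = 0.000829 and 0.00124). Elf3, named above as like Padi4 and so given without a p-value, stood at 3.13 and is counted among the 13. The markers did not move alike. Of the 7 not called, Prom1, Krt18, Ehf and Ovol1 stood at 0.74, 0.31, 0.30 and 0.02. Spint1, Cldn3 and Cldn4 stood at -0.18, -0.35 and -0.57. When single libraries were left out, 11 to 13 of the 20 markers rose. The fewest rose without estrus replicate 2, where 854 of all 13770 tested genes were higher. The summed level of the list was 4056 to 4462 FPKM in the estrus libraries and 1227 to 1804 FPKM in the diestrus libraries, a ratio of means of 2.88. Set against that sum, a measure added after the values were seen, Padi1 stood at 18.1, 31.6 and 29.1 FPKM per 100 FPKM of epithelium markers in estrus replicates 1 to 3, against 5.02, 2.17, 4.17 and 2.10 in diestrus replicates 1 to 4. On this scale the ratio of group means was 7.82 for Padi1, 6.48 for Padi2 and 4.19 for Padi4. Unscaled it was 21.8, 18.4 and 12.5. The groups of these 3 genes did not overlap on this scale. The share of all genes so separated was not computed on it, so nothing is read from that separation. For Padi3 the ratio on this scale was 3.31. Its groups overlapped, with 0.0151 in the lowest estrus library and 0.0165 in the highest diestrus library.

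**Figure D5:**
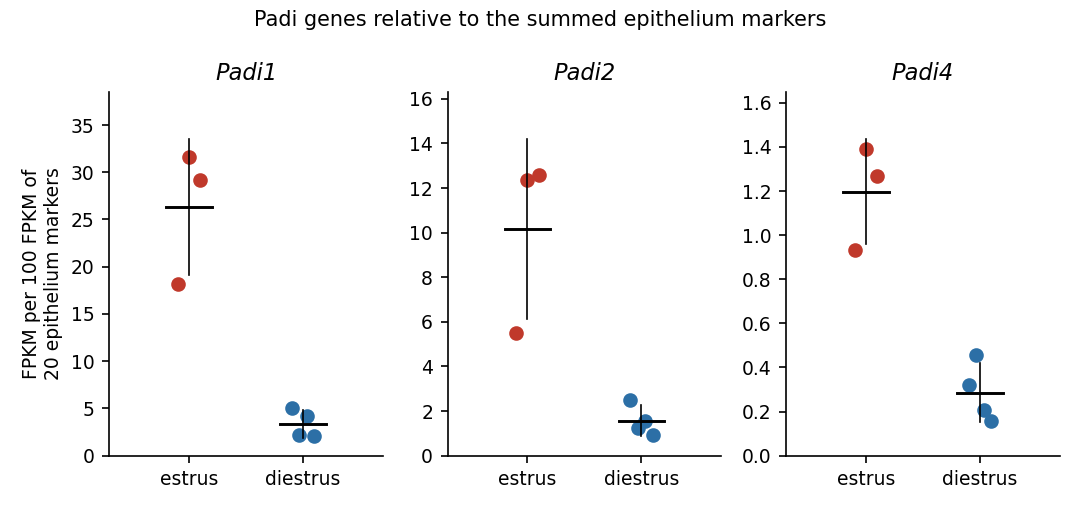
FPKM of Padi1, Padi2 and Padi4 per 100 FPKM of the 20 summed epithelium markers (y axes from 0, one panel a gene), with points for libraries, horizontal bars for means and vertical bars for 1 SD. For Padi1 the estrus libraries lie at 18.1 to 31.6 and the diestrus libraries at 2.10 to 5.02.

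Padi4 is known from granulocytes and Padi2 also from macrophages. Of 22 neutrophil markers, 21 had rows and 7 passed the filter, of which Itgam rose and none fell, beside 17.2% higher and 14.0% lower over all tested genes, with a median of -0.54. Of the other 6, S100a9 stood at a log2 fold change of 0.46, and Csf3r, Mmp9, Ncf1, Ncf4 and Retnlg stood at -0.73, -0.84, -0.79, -0.54 and -0.20. Every estrus library of Csf3r lay below every diestrus library (limma adjusted p = 0.0509), and the share of all tested genes with that order was not counted. Csf3r was under 1 FPKM in all estrus libraries and passed the filter only through its diestrus libraries. Every estrus library of S100a9 lay above every diestrus library (adjusted p = 0.111), as in 21.9% of the tested genes. At the closest, S100a9 stood at 1.230 FPKM at estrus against 1.229 FPKM at diestrus. The granule genes Elane and Camp were listed at 0 in all libraries, and S100a8 and S100a9 averaged 0.956 and 1.85 FPKM at estrus, against 0.611 and 1.03 FPKM at diestrus. The granule genes Mpo and Prtn3 averaged 0.376 and 0.846 FPKM at estrus, against 0.429 and 0.656 FPKM at diestrus. The summed neutrophil list was 57.8 to 141.3 FPKM at estrus and 30.2 to 94.5 FPKM at diestrus. Itgam, an integrin subunit of myeloid cells, averaged 62.9 ± 38.4 FPKM at estrus (SD, n = 3) and 7.02 ± 2.08 FPKM at diestrus (SD, n = 4). Without Itgam, a sum added after the values were seen, the list averaged 39.1 ± 3.7 FPKM at estrus and 56.6 ± 25.2 FPKM at diestrus. The estrus mean was the lower, and the estrus libraries lay within the range of the diestrus libraries. The largest part of that sum was Retnlg, which averaged 23.0 FPKM at estrus and 29.3 FPKM at diestrus. Without diestrus replicate 1, 3 neutrophil markers fell, where 2445 of all 13789 tested genes were lower. The part of this list in the Padi4 result was not tested.

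Of 15 macrophage markers, all tested, 1 rose and 5 fell, beside 17.2% higher and 14.0% lower over all tested genes, with a median of -0.92. Cd14, a lipopolysaccharide co-receptor, rose to 202 ± 16 FPKM at estrus (SD, n = 3), against 48.7 ± 5.8 FPKM at diestrus (SD, n = 4), with a limma adjusted p of 0.000512. Ms4a7 and Csf1r fell by 1.22 and by 1.21 (adjusted p = 0.0119 and 0.0149), as did Emr1, Lyz2 and C1qb (adjusted p = 0.0442, 0.0196 and 0.0486). Without estrus replicate 2 none of the 5 passed (adjusted p = 0.0577 to 0.159). Without estrus replicate 1 Csf1r was at 0.0507. Without diestrus replicate 1, 9 macrophage markers fell, where 2445 of all 13789 tested genes were lower. The summed list was 437 to 548 FPKM at estrus and 410 to 913 FPKM at diestrus, with no marker at 0, and its part in the Padi2 result was not tested. Of 15 oocyte genes, the cell type of Padi6, 2 passed the filter and neither was called. Zp3 was listed at 0 in all libraries, and the summed oocyte list was 19.3 to 20.9 FPKM at estrus and 19.7 to 24.8 FPKM at diestrus, nearly all of it from Zbed3, which averaged 18.3 FPKM at estrus and 19.98 FPKM at diestrus.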

How the data were processed

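RNA from whole mouse uteri was column-purified (Qiagen RNeasy) and DNase-treated, and libraries were prepared with an Illumina TruSeq RNA kit, per the labels' protocols. The authors deposited FPKM, 1 column a library, in a single table without counts. The submitters' processing notes list TopHat2 2.0.4 and mm10 but give neither a role. How FPKM were computed, and on which annotation, is not given in the sources used here. Each column was assigned through the description of its sample, and each group through the title.

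A gene was tested if it reached 1 FPKM in 3 or more libraries. Log2(FPKM + 1) values were compared between the groups in limma 3.58.1 (R 4.3.3), with no covariate and a mean-dependent prior variance. Two-sided p-values were adjusted by the Benjamini-Hochberg method over all 13920 tested genes, with a threshold of 0.05. A fold change on this scale understates the change of low genes. The fit was tested on simulated data. The members and lists were chosen with earlier results of these data known. Named genes were the members, the 3 genes most like each member with a mean of at least 5 FPKM, Esr1 and Pgr, up to 3 called genes with the smallest p in each list, and every called neighbour. A gene that this rule names is not reported here. All further named genes were named after their values were seen. Gene positions are from GENCODE M21, and promoter windows, matched for all 5 members by symbol, from RefSeq. Plots used matplotlib 3.10.9 (Python 3.11.15). The study's assays other than RNA-seq were not analysed here.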

Additional observations from a re-analysis of the deposited data

How the results depend on the processing

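No alternative that gave a value turned the direction of Padi1, Padi2, Padi3 or Padi4. The log2 fold changes ran from 4.29 to 4.81 for Padi1, 3.91 to 4.59 for Padi2 and 2.61 to 3.67 for Padi4 over 12 alternatives, the filters and the trend leaving these values as they are by construction. A pseudocount of 5 FPKM gave 2.61 for Padi4 and 0.25 for Padi3, and one of 0.1 FPKM gave 2.46 for Padi3. When single libraries were left out, the log2 ratio of the summed Padi FPKM, 4.43 with all of them, ran from 4.17 to 4.74, and Padi3 from 0.70 to 1.07. Padi6, listed at 0 at diestrus, was given no fold change.

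Of all tested genes, 2393 were higher and 1943 lower. Leaving out single libraries gave 854 to 2866 higher and 579 to 2445 lower, the fewest without estrus replicate 2 and the most without diestrus replicate 1. A mean of at least 5 FPKM gave 1181 lower. Deviations from the group mean correlated at 0.198, 0.0243 and 0.169 in the 3 pairs of same-numbered libraries. Differently numbered pairs ran from -0.326 (estrus replicate 3 with diestrus replicate 1) to 0.267 (estrus replicate 3 with diestrus replicate 4). The numbers were therefore not taken to pair the libraries. With the replicate block, 1299 genes were higher and 982 lower, diestrus replicate 4 adding nothing to the fold change. The block also gave 0 lower in the cornification list, 1 lower among citrullinated proteins, 2 lower among arginine enzymes, 1 lower among macrophage markers, 1 lower among regulators and 0 higher among neighbours.

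With no filter, 5 cornification genes were higher, 1 citrullinated protein lower and 3 macrophage markers lower. With a mean of at least 5 FPKM, 0 cornification genes and 1 regulator were lower. A pseudocount of 0.1 FPKM or no trend called 1 neutrophil marker lower, and one of 5 FPKM called 1 regulator lower. After quantile normalization 0 cornification genes were lower, 2 neutrophil markers and 3 regulators higher, and among neighbours 0 were higher and 1 lower. Without single libraries, the higher and lower calls ran from 1 to 4 and 0 to 1 for cornification, 2 to 5 and 0 to 4 for citrullinated proteins, 0 to 3 and 2 to 5 for arginine enzymes, 2 to 6 and 1 to 2 for regulators, and 0 to 1 and 0 to 1 for neighbours. The lower calls ran from 0 to 3 for neutrophil, 0 to 9 for macrophage and 0 to 1 for oocyte markers. Ass1 and Tgm1 could not be tested without any 1 estrus library, nor Tfap2c without diestrus replicate 2, 3 or 4, since each then missed the filter, which lowers those counts by construction. The cause of the other changes was not tested.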
